A study of Mus musculus with 15 samples.

Results

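The transcriptome described here is that of vehicle-exposed embryonic day 18 (E18) mouse dorsal forebrain, taken from 8 of the 15 samples of the series, namely every sample labelled vehicle, 4 labelled male and 4 labelled female. C57BL/6J dams carried an osmotic minipump that delivered 0.9% saline, the vehicle of the study, from 3 days before breeding and through gestation, and the offspring carried no transgene or mutation. The other 7 samples came from dams infused with arginine vasopressin in a model of preeclampsia and were not compared here. The libraries were stranded poly(A) mRNA libraries read as 150 bp pairs. The samples are called vehicle male 1 to 4 and vehicle female 1 to 4 by their labelled sex. Per the study, samples of 1 sex and treatment came from independent litters, and the series from 8 litters in all. A dam had 1 treatment, so by these counts the 8 vehicle samples are 4 litters with a male and a female each. No source used here says which samples are littermates. Tests over the 8 samples treat them as independent, so their p-values count more units than there are litters.

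The dorsal forebrain of the late mouse embryo gives rise to the cerebral cortex and the hippocampus. Radial glia line the ventricle and produce intermediate progenitors and glutamatergic neurons, which migrate outward to form the cortical layers, while GABAergic interneurons arrive from the ventral forebrain. At this age neurogenesis is ending, axons and dendrites are growing, and few synapses are mature. Blood vessels, microglia, meninges and choroid plexus lie in or next to the tissue and can enter a dissected piece to different degrees.

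Values are transcripts per 1000000 (TPM), a level per transcript length and per library total, summed over the transcripts of a gene. TPM keeps no read counts, so the depth behind a value is unknown and no counting interval can be given. A mean of at least 1 TPM was reached by 15639 of 53337 genes, 13262 of them protein coding. A mean of at least 10 TPM was reached by 9658 genes, of at least 100 TPM by 1612 and of at least 1000 TPM by 122, and 22239 genes were listed at 0 in every sample. Single samples held between 15097 and 15681 genes at 1 TPM or more, and 13857 genes reached 1 TPM in all 8. Between any pair of samples the median absolute log2 difference over genes was 0.113 to 0.176.

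The library labelled vehicle male 3 went against its sex label. Xist, the noncoding RNA that coats the inactive X chromosome, was at 266 TPM in it, against 0.457 to 1.13 TPM in the other 3 samples labelled male and 174 to 294 TPM in the 4 labelled female. Eif2s3y, Kdm5d, Uty and Ddx3y, all on the Y chromosome, summed to 0.489 TPM in it, against 145 to 155 TPM in the other males and 0.250 to 1.01 TPM in the females. The library was kept under its label. The limma comparison of the sexes is given with and without it for single genes. The split of stable genes by sex and the counts of genes whose sexes do not overlap include it under its label. So do the striatal list compared between the sexes and the search for outlying samples within a sex.

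The tissue label was checked against marker genes. The 6 genes of dorsal forebrain identity summed to a median of 1185 TPM, from 1012 TPM in vehicle female 1 to 1298 TPM in vehicle female 3, a range of 1.28-fold. Emx1 and Emx2, homeobox genes of the dorsal telencephalon, were at 33.2 ± 2.95 and 15.5 ± 4.07 TPM (SD, n = 8), and Lhx2, a selector gene of the cortex, at 136 ± 15.5 TPM. Neurod2 and Neurod6, which mark postmitotic glutamatergic cortical neurons, were at 182 ± 10.7 and 585 ± 81.1 TPM. Genes of the diencephalon, midbrain, hindbrain and spinal cord were low or listed at 0, while striatal genes, described further on, were not. Of 11 diencephalon and midbrain genes only Tcf7l2 reached a mean of 1 TPM, at 1.65 ± 0.356 TPM, and the 11 summed to 1.21 to 2.70 TPM. The 10 Hox genes of hindbrain and spinal cord summed to 0.0158 to 0.280 TPM, with Hoxa2, Hoxc6 and Hoxb8 listed at 0 in every sample.

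The TPM of these samples were concentrated in few genes. The 10 most abundant genes held 13.4% ± 1.18 of a sample's total, the 100 most abundant 31.7% ± 1.63 and the 1000 most abundant 60.9% ± 1.19 (SD, n = 8). Protein-coding genes of the nuclear genome held 76.5% to 82.3% of the total, short RNA genes 6.72% to 8.99%, the mitochondrial genome 4.67% to 9.36%, pseudogenes 3.07% to 3.75% and other long noncoding genes 1.59% to 1.88%.

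Among the 20 most abundant protein-coding genes of the nuclear genome, 7 encode building blocks or regulators of microtubules and actin filaments. Tuba1a, the main alpha-tubulin of young neurons, led with 14796 ± 980 TPM, from 13374 TPM in vehicle male 2 to 16424 TPM in vehicle male 1, a median of 14758 TPM. Stmn1, a tubulin-binding protein that destabilises microtubules, was at 6022 ± 261 TPM, with a lowest value of 5538, a median of 6037 and a highest value of 6497 TPM. The beta-tubulins Tubb2b and Tubb5 were at 5335 ± 368 and 2182 ± 141 TPM. The actin-sequestering peptides Tmsb4x and Tmsb10 were at 5801 ± 398 and 3810 ± 212 TPM, and the cytoplasmic actin Actg1 at 2836 ± 164 TPM. Another 7 encode ribosomal proteins, between Rpl13a at 2237 ± 121 TPM and Rps29 at 2725 ± 128 TPM. The remaining 6 were Eef1a1, the translation elongation factor that delivers tRNA to the ribosome, at 7709 ± 476 TPM, Tpt1 at 3365 ± 178 TPM, the prolyl isomerase Ppia at 2847 ± 122 TPM, Ptma at 2804 ± 241 TPM, the polyubiquitin gene Ubb at 2220 ± 130 TPM and the predicted gene Gm11808 at 2159 ± 132 TPM. Tubulins and ribosomal proteins have near-identical copies, so the split of reads between members of these families is uncertain.

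The larger list of 25 growth cone and neuronal cytoskeleton genes summed to 55985 ± 2495 TPM, with a lowest sum of 52248 and a highest of 58920 TPM. Within it, Tubb3, the neuron-specific beta-tubulin, was at 2159 ± 182 TPM, Gap43, a growth cone membrane protein, at 801 ± 72.6 TPM, Dcx, which stabilises microtubules in migrating neurons, at 305 ± 35.0 TPM, and Mapt, the gene of tau, at 590 ± 38.6 TPM. Their median SD on the log2 scale was 0.107, against 0.138 for all 9658 genes with a mean of at least 10 TPM. Spread falls with level, and the medians of all genes were 0.111 at 100 to 500 TPM and 0.101 at 500 TPM or more, so the list did not stand apart from genes of like abundance.

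The mitochondrial genome contributed 13 protein-coding genes. mt-Co3 was at 11790.5 ± 2147 TPM and mt-Co2 at 11102 ± 3153 TPM, both subunits of cytochrome c oxidase. mt-Nd6, the gene encoded on the other strand, was the lowest at 22.98 ± 9.11 TPM. The share held by all mitochondrial genes was 9.36% in vehicle male 4 and 8.15% in vehicle female 4, and 4.67% to 6.15% in the other 6 samples. Since TPM is a share of a fixed total, every other gene of a sample is lower by what these genes take. Nuclear copies of mitochondrial sequence are described further on, and the split of TPM between them and the mitochondrial genes is uncertain.

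The single most abundant gene was a short RNA gene. Mir6236, annotated as a microRNA hairpin of 123 nt, held 4.47% to 6.08% of a sample's TPM, a mean of 54070 TPM. Ranks 10 to 12 by level were taken by Gm24270, Gm24245 and Gm23935, 57 nt each, at chr9:56223715-56223771 (GRCm38, minus strand), chr4:139338304-139338360 (plus) and chr16:11144125-11144181 (plus). Their transcripts have the same sequence, and each is listed at the same value, a mean of 5810 TPM with a range of 1265 to 11078 TPM. Transcripts this short are shorter than a 150 bp read, and poly(A) libraries do not measure mature microRNAs, so these values do not give microRNA levels. In all, 698 of the 7122 transcripts under 200 nt share their sequence with another, for which the split of TPM is arbitrary. The sequence that the 3 genes share is given from the annotation.
Gm24270, Gm24245 and Gm23935: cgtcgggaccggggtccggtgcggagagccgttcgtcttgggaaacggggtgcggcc

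Progenitor markers were present beside those of neurons. Radial glia genes summed to a median of 2615 TPM, from 2076 to 2869 TPM, of which Fabp7, a fatty-acid-binding protein of radial glia, gave 1853 ± 240 TPM and Vim, their intermediate filament, 313 ± 62.6 TPM. Pax6, a transcription factor of cortical progenitors, was at 20.5 ± 2.88 TPM. Intermediate progenitor genes summed to 129 to 193 TPM, with Eomes, which defines these cells, at 25.9 ± 5.17 TPM. The 14 cell cycle genes summed to 923 to 1105 TPM, of which Cdk4 alone gave 564 ± 35.0 TPM and Mki67, a marker of dividing cells, 11.1 ± 1.78 TPM.

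Neuron classes of all layers were present. Deep-layer genes summed to 343 to 440 TPM, with Tbr1, a determinant of corticothalamic neurons, at 99.3 ± 5.90 TPM, Fezf2 at 60.7 ± 9.60 TPM and Bcl11b at 37.8 ± 5.81 TPM, both needed for subcerebral projection neurons. Upper-layer genes summed to 371 to 508 TPM, with the homeobox genes Cux1 at 89.7 ± 7.91 TPM and Cux2 at 70.1 ± 10.9 TPM. Reln, the secreted protein of Cajal-Retzius cells that guides migrating neurons, was at 70.1 ± 13.8 TPM. Interneuron genes summed to 710 to 918 TPM, mostly through the neuropeptides Npy, at 409 ± 73.3 TPM, and Sst, at 126 ± 41.4 TPM, while Gad1 and Gad2, the enzymes that make GABA, were at 39.4 ± 7.77 and 14.7 ± 1.201 TPM. In Reln, Gad1 and Cux2 the transcript of highest mean was annotated as noncoding. It held 43.8%, 47.3% and 37.2% of the gene's TPM, so these levels are not those of coding mRNA alone.

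Glial and non-neural cells left smaller sums. Astrocyte genes summed to 144 to 213 TPM, with Aldoc, a glycolytic enzyme of astrocytes that radial glia also express, at 89.1 ± 9.48 TPM, and Aqp4, their water channel, at 1.91 ± 0.421 TPM. Oligodendrocyte precursor genes summed to 62.9 to 100.5 TPM. Mature oligodendrocyte genes summed to 9.56 to 12.7 TPM, nearly all of it Mbp at 10.02 ± 0.895 TPM, and the myelin genes Mog, Mobp and Opalin were each under a mean of 0.08 TPM. Microglia genes summed to 72.8 to 153 TPM, endothelial genes to 188 to 343 TPM and pericyte and smooth muscle genes to 99.6 to 190 TPM. Red blood cell genes summed to 2241 TPM in vehicle female 1 and up to 7129 TPM in vehicle male 2. In bulk tissue, fewer cells of a type and less RNA per cell cannot be told apart.

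**Figure D1:**
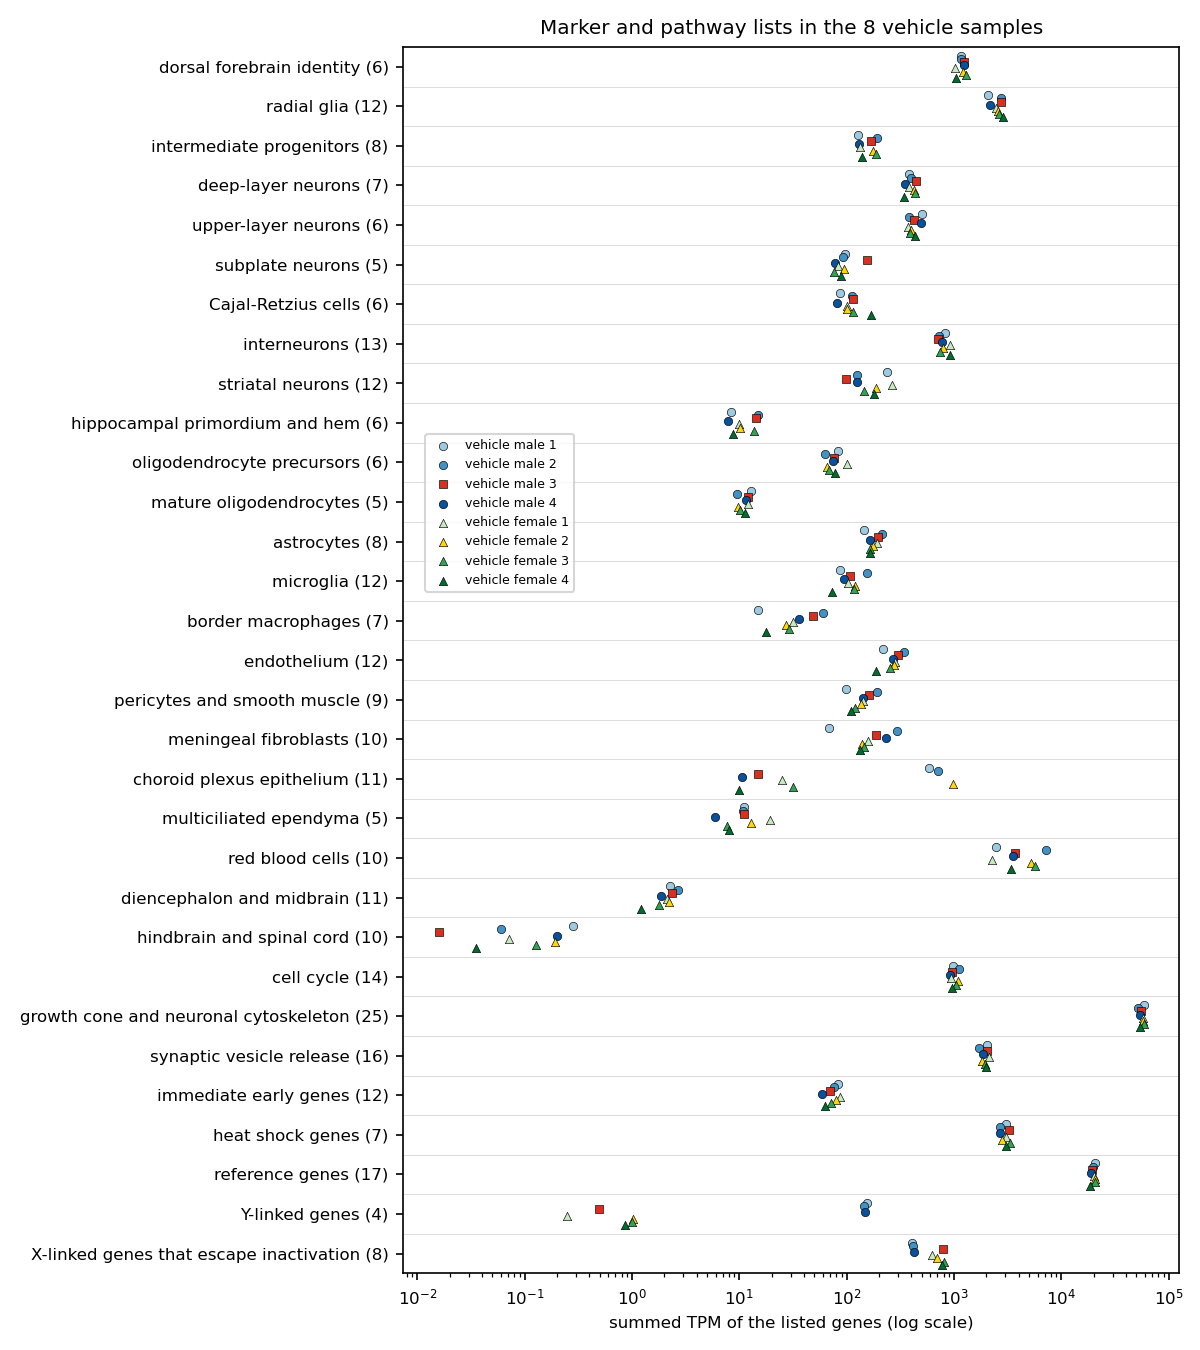
Summed TPM of each marker and pathway list (log scale; number of genes found in brackets) in each of the 8 vehicle samples, 1 point per sample, with circles for samples labelled male, triangles for samples labelled female and a square for vehicle male 3. The choroid plexus list spans 9.84 to 968 TPM while the dorsal forebrain list spans 1012 to 1298 TPM, and vehicle male 3 lies with the samples labelled female in the Y-linked and X-linked lists.

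Several lists set single samples apart. Choroid plexus genes, led by the thyroxine carrier Ttr, summed to 585, 715 and 968 TPM in vehicle male 1, male 2 and female 2 and to 9.84 to 31.8 TPM in the other 5, a 98.4-fold range. Ttr itself was at 559, 680.3, 6.98 and 1.53 TPM in the 4 samples labelled male and at 16.6, 922, 24.4 and 3.23 TPM in the 4 labelled female. Folr1, a folate receptor of that epithelium, took the same order at 8.88, 12.3 and 14.8 TPM in those 3 samples and 0 to 1.06 TPM elsewhere.

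Meningeal fibroblast genes summed to 68.1 TPM in vehicle male 1 and 296 TPM in vehicle male 2. Of its 10 genes, all 10 were lowest in vehicle male 1 and 9 were highest in vehicle male 2. Dcn, a collagen-binding proteoglycan, was at 10.5 TPM in vehicle male 1, 63.6 TPM in vehicle male 2 and 28.2 to 53.2 TPM in the other 6. Vehicle male 2 was also the highest sample for 10 of 12 endothelial, 9 of 12 microglia and 5 of 7 border macrophage genes, and vehicle female 4 the lowest for 10 of 12 endothelial and 9 of 12 microglia genes.

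The genes of the striatal neuron list summed to 97.7 TPM in vehicle male 3 and 263 TPM in vehicle female 1, with a median of 162 TPM. Only 4 of its 12 genes had a mean of at least 10 TPM, so few genes weigh most in the sum. Tac1 and Penk, described below, had means of 17.3 and 11.2 TPM beside a mean sum of 170 TPM. Most of the sum thus came from other members. Their levels, and the part of noncoding transcripts in them, are not given here. How much of the sum came from tissue below the dorsal forebrain, rather than from cells within it, was not tested. Vehicle female 1 was highest for 8 of the 12 genes and vehicle male 3 lowest for 8. Tac1, the precursor of substance P, was at 27.0, 10.6, 2.44 and 5.02 TPM in the males in label order and at 38.3, 21.1, 14.8 and 18.96 TPM in the females. Penk, the enkephalin precursor, was at 14.7, 7.44, 4.76 and 6.63 TPM in the males and 22.7, 11.5, 7.30 and 14.6 TPM in the females. Both were lowest in vehicle male 3 and highest in vehicle female 1.

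The balance of gene partners that change with maturation was read within each sample. For 15 pairs of related genes whose balance differs between immature and mature tissue or between cell types, the log2 ratio of TPM + 0.5 was tested over the 8 samples with an exact two-sided sign-flip permutation test, whose smallest possible p is 0.00781. In 14 pairs the ratio had the same sign in all 8 samples, and p was that smallest value (adjusted over the 15 pairs, 0.00837).

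The first member of the pair was the higher one in 10 pairs. Grin2b, the NMDA receptor subunit of early life, was at 17.3 ± 3.09 TPM and Grin2a, its later counterpart, at 0.800 ± 0.103 TPM, a mean log2 ratio of 3.76 ± 0.18 (SD, n = 8). The sodium channel Scn3a, prominent before birth, was at 26.9 ± 5.78 TPM and Scn1a at 5.24 ± 1.10 TPM. Camk2b exceeded Camk2a, the CaM kinase subunit that dominates in adult forebrain, at 249 ± 23.9 against 13.6 ± 2.64 TPM. The Tubb3 to Tubb4a ratio was the least variable, at 3.17 ± 0.05 on the log2 scale.

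The second member was the higher one in 4 pairs. Slc17a7, the vesicular glutamate transporter of mature cortical neurons, was at 34.5 ± 10.2 TPM and Slc17a6 at 17.9 ± 2.63 TPM, a log2 ratio of −0.89 ± 0.34 that was below 0 in all 8 samples. Dlg4, which encodes the postsynaptic scaffold PSD-95, was at 194 ± 15.9 TPM and Dlg3 at 52.9 ± 3.99 TPM. The embryonic globins Hbb-y and Hba-x were at 0.398 ± 0.260 and 0.121 ± 0.170 TPM against 2007 ± 803 TPM for the adult globin Hbb-bs and 691 ± 271 TPM for Hba-a1, whose near-identical copy Hba-a2 was at 1161 ± 485 TPM. The globin ratios are on a scale that 0.5 TPM bounds, and they understate the difference.

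The chloride transporters were the pair without a difference beyond the spread. Slc12a2, which loads chloride into immature neurons, was at 13.3 to 19.9 TPM with a median of 14.6 TPM, and Slc12a5, which extrudes it from mature ones, at 10.3 to 21.4 TPM with a median of 12.7 TPM. The log2 ratio was 0.12 ± 0.45, above 0 in 5 of 8 samples, with p = 0.469 in the exact permutation test. Both pairs of splicing regulators had the first member higher in all 8 samples. Ptbp2, the neuronal form, was at 213 ± 7.21 TPM against 54.8 ± 7.503 TPM for Ptbp1, which progenitors express, and Rbfox2 at 204 ± 18.5 TPM against 53.8 ± 6.90 TPM for Rbfox3, the gene of the neuronal antigen NeuN.

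**Figure D2:**
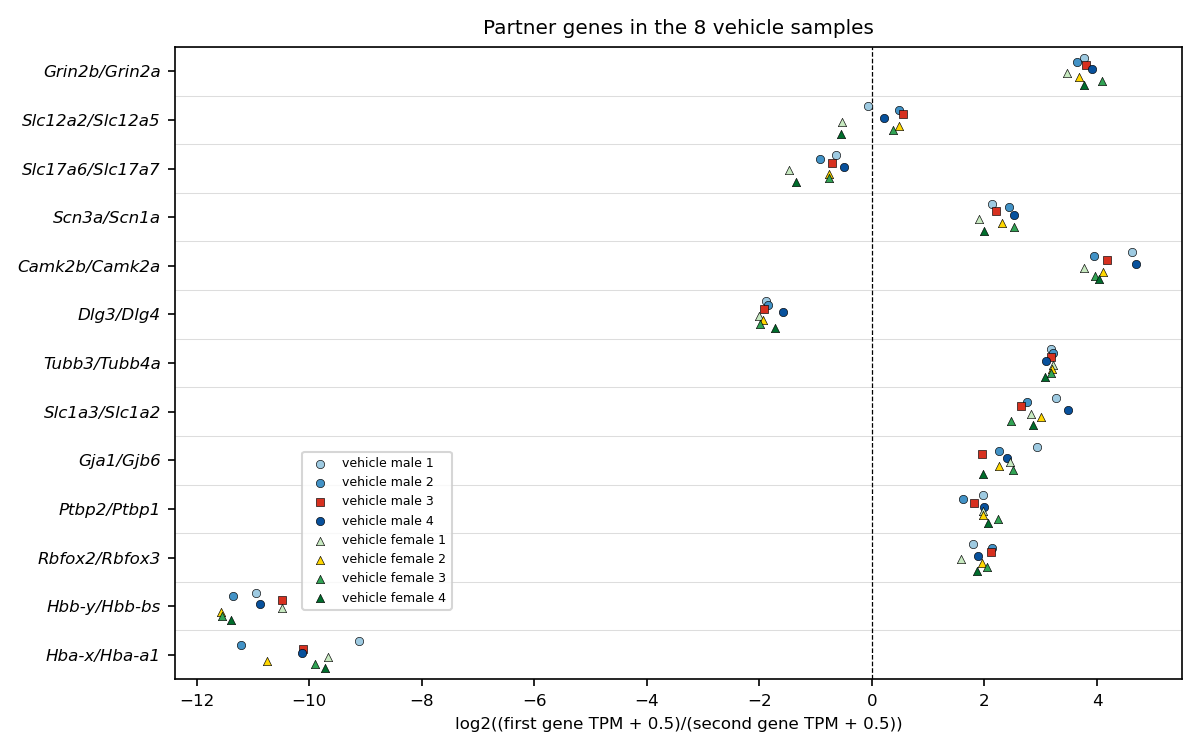
Log2 ratio of the first to the second gene of 13 of the 15 partner pairs, computed on TPM + 0.5, for each of the 8 vehicle samples; the dashed line marks equal levels. The points of each pair lie on one side of the line in every pair drawn except Slc12a2/Slc12a5, whose 8 points lie on both sides, from −0.54 to 0.56.

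In most genes the leading transcript did not take the whole level. Among 9766 genes with a mean of at least 5 TPM and 2 or more transcripts in the table (a median of 6), the dominant transcript, the one of highest mean, held a median of 66.9% of the gene's TPM. It held at least 90% in 2075 genes (21.2%) and under 50% in 2650 (27.1%). The same transcript was dominant in all 8 samples in 7686 genes (78.7%). Among the abundant cytoskeletal genes a single transcript took nearly all of the level, as Tubb3-201 with 99.98% ± 0.0187, Map1b-201 with 99.6% ± 0.0689 and Stmn1-201 with 98.1% ± 0.357, while Map2-201 held 54.3% ± 5.61 and Actg1-204 52.7% ± 3.85.

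In 801 of the 9487 genes with a coding transcript, the dominant transcript was annotated as something else, a retained intron in 348, a processed transcript without an open reading frame in 238 and a target of nonsense-mediated decay in 214. Tpt1-204, a processed transcript, held 80.5% ± 1.84 of Tpt1, between 77.9% and 82.9%. Ppia-201, annotated as a decay target, held 55.6% ± 3.26 of Ppia. Rps20-201, a retained intron form, held 90.7% ± 0.515 of the ribosomal protein gene Rps20, and Lars2-209, a decay form, held 97.1% ± 0.623 of the mitochondrial leucyl-tRNA synthetase Lars2. The other 6 of the 10 most abundant such genes were Ptms, Rpsa, Eef1b2, Rps16, Anp32a and Ptov1, with shares of 28.5% to 65.2%. In 721 of the 801 genes the dominant transcript was shorter than the longest coding one, with median lengths of 1246 and 3597 nt. Overlapping models of unequal length share reads, and how much of these shares is assignment was not tested.

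For 19 splicing or stop codon choices with known roles in neurons, usage was read as the TPM of transcripts holding an exon in percent of those holding or skipping it. All 19 lay on the same side of an equal share in all 8 samples, with the smallest possible exact two-sided sign-flip p of 0.00781 (adjusted over the events, 0.00781). The events are described by percent with the SD over 8 samples.

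Pkm, pyruvate kinase, was near balance between its mutually exclusive exons. Exon 9 (M1, the form of differentiated tissue) was used by 55.1% ± 2.10 of the TPM, between 51.3% and 57.5% with a median of 55.3%, and exon 10 (M2, the form of proliferating cells) by the rest. This was 263 ± 22.5 against 214 ± 21.9 TPM, a log2 ratio of 0.30 ± 0.12 that was above 0 in 8 of 8 samples. In Snap25, the SNARE protein of synaptic vesicle fusion, the earlier exon 5a was used by 34.3% ± 2.31, between 31.5% and 37.7% with a median of 34.1%, and 5b by the rest. The leading 5a and 5b transcripts were 1014 and 2116 nt long. Usage was read from the TPM of whole transcripts, 1 per form in both genes, so sequence outside the exons and transcript length also enter it. The Pkm transcripts with exon 9 and exon 10 were 2041 and 2432 nt long. The exon pairs are printed with the bases that tell them apart in capitals (GRCm38, plus strand). The Pkm exons at chr9:59675029-59675195 and chr9:59675568-59675734 differ at 64 of 167 bases, and the Snap25 exons at chr2:136769743-136769860 and chr2:136770057-136770174 at 31 of 118.
Pkm exon 9: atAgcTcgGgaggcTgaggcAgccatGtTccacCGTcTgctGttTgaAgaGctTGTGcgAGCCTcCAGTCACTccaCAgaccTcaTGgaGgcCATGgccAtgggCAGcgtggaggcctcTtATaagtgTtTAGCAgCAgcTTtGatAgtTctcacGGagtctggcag
Pkm exon 10: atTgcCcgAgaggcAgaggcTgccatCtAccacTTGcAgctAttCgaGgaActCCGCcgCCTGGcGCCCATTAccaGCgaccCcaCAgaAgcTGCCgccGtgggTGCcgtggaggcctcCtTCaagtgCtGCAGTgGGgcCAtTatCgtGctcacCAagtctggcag
Snap25 exon 5a: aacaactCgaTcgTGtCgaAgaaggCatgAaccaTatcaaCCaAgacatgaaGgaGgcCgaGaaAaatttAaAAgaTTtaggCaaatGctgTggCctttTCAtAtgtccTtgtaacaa
Snap25 exon 5b: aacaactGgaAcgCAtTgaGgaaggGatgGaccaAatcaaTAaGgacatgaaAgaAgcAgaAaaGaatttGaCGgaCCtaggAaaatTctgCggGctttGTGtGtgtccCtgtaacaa

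Exons that mark neurons or brain differed in use. Those of Src and L1cam and the longer one of Clta were mostly included, while the shorter one of Clta was mostly skipped. An App exon of non-neuronal cells was mostly skipped too. The neuronal N1 exon of the kinase Src, which lengthens its SH3 domain, was included in 74.6% ± 4.72, between 68.3% and 82.5%. The longer of 2 brain exons of the clathrin light chain Clta was included in 74.7% ± 2.49, between 69.6% and 77.3%, and the shorter, of 36 nt, in 7.04% ± 0.561. The 12-nt neuronal exon of the adhesion molecule L1cam was included in 90.9% ± 0.791. The exon of App that encodes the Kunitz protease inhibitor (KPI) domain, which neurons largely omit, was included in 14.6% ± 2.26, from 12.4% to 18.9%, and the exon that follows it in 5.06% ± 1.05. Vehicle male 2 had the highest App values, 18.9% and 7.02%. The exons are shown in capitals with 15 bases of the neighbouring exons on each side, for Src chr2:157458843-157458860 (plus strand), for Clta chr4:44030215-44030268 (plus) and for App chr16:85043576-85043743 (minus).
Src exon N1: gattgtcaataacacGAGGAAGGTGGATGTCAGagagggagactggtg
Clta exon of 54 nt: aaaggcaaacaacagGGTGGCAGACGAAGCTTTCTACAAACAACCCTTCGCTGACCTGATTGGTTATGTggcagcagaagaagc
App KPI exon: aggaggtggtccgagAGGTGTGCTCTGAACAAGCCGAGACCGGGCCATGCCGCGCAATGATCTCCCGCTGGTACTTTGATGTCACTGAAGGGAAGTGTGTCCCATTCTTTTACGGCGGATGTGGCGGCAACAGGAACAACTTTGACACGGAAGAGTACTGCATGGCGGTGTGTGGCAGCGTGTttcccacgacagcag

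Tau transcripts were almost wholly of the short type. The upstream and downstream 87-nt cassettes of Mapt, which lengthen the amino-terminal part of tau, were in 0.131% ± 0.112 and 0.0937% ± 0.0508 of its TPM. The means were 0.689 and 0.504 TPM with them and 549 TPM without, with leading transcripts of 1362 and 5253 nt. The 93-nt exon of the microtubule-binding repeats was not annotated as a cassette in the models used and has no value here. The 63-nt exon of Grin1, the obligatory NMDA receptor subunit, was also mostly skipped, with inclusion in 9.23% ± 2.90. In the flip and flop pair of the AMPA receptor gene Gria2, the upstream exon was used by 24.2% ± 2.11, though the leading transcripts of the 2 forms differ in length, at 10371 and 4026 nt.

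The remaining events concern adhesion and polarity genes. The 801-nt exon of Ncam1 that lengthens its cytoplasmic part was in 21.6% ± 1.48, the 147-nt exon of Numb in 20.3% ± 5.47, and the upstream stop codon of Cdc42 in 63.5% ± 2.16. Ptbp2 included its 34-nt exon, whose loss shifts the reading frame, in 65.9% ± 2.64, with leading transcripts of 3364 nt with the exon and 576 nt without. Leading transcripts with and without the exon were 1962 and 3549 nt for Numb and 1448 and 2108 nt for the stop codons of Cdc42, and the part of length in these shares was not tested. For agrin, the organiser of neuromuscular synapses, the 33-nt exon of Agrn was in 28.1% ± 3.63 and the 24-nt exon in 73.1% ± 4.05, but with protein-coding transcripts only, both log2 ratios became 0.068 (exact permutation test, adjusted p = 0.445), so the first turned and the second no longer passed.

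**Figure D3:**
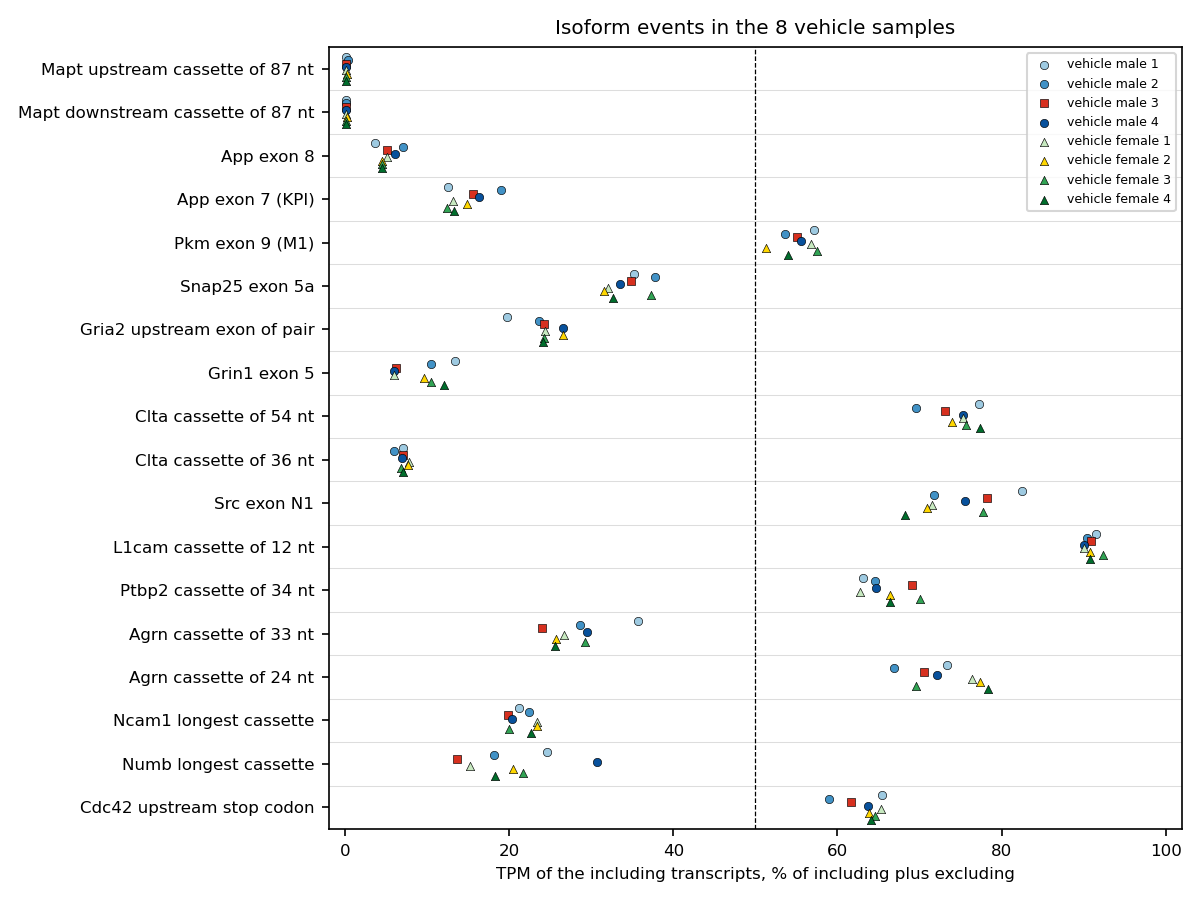
TPM of the transcripts that include the exon of 18 of the 19 events, in percent of those including and excluding it, for each of the 8 vehicle samples; the dashed line marks 50%. Pkm exon 9 lies just right of the line in every sample (51.3% to 57.5%), L1cam at 90.02% to 92.4% and the Mapt cassettes near 0.

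The dominant transcript was not the same in all samples for the remaining genes. The 10 largest SDs of the dominant share, among genes with a mean of at least 20 TPM, were those of Eif2s3y, Morn2, Nhej1, Bckdhb, Katna1, Fam220a, 1300002E11Rik, Umad1, 9530068E07Rik and Zfp281. Morn2-202 held 86.3%, 99.99%, 38.1% and 99.99% of Morn2 in the males in label order and 66.0%, 15.1%, 77.8% and 37.5% in the females. Katna1-201, of the microtubule-severing subunit katanin p60, held 58.9% to 66.9% in 6 samples, but 12.2% in vehicle male 2 and 0.453% in vehicle male 4. Bckdhb-201, of a subunit of the branched-chain keto acid dehydrogenase, held under 0.01% in vehicle female 1 and 2 and 45.4% to 75.6% in the other 6. Eif2s3y enters through the samples in which it was near 0.

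The spread of a gene between vehicle samples was measured as the SD over the 8 of log2(TPM + 0.5), for the 9658 genes with a mean of at least 10 TPM. The median SD was 0.138, with 10% of genes under 0.0781 and 10% over 0.274. The highest sample was less than 1.2 times the lowest in 1579 genes, while 297 genes had an SD over 0.5 and 98 over 1. Spread fell with level, from a median of 0.170 at 10 to 20 TPM to 0.101 at 500 TPM or more.

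The 15 genes of least spread had SDs of 0.0237 to 0.0368 and levels of 17.3 to 1312 TPM. Add1, an adducin that caps actin at the membrane skeleton, was at 195 ± 3.21 TPM, with a lowest value of 190.6 and a highest of 199 TPM, a 1.04-fold range. Rps25, a protein of the small ribosomal subunit, was at 1312 ± 27.9 TPM, and Ube2l3, a ubiquitin-conjugating enzyme, at 108 ± 2.11 TPM. Several of the others encode parts of complexes found in all cells. Sec13 of the COPII coat and the nuclear pore was at 115 ± 2.49 TPM and the transcription elongation factor Supt4a at 106 ± 2.42 TPM. Psmd6 of the proteasome was at 172 ± 4.29 TPM. Mrps2 of the mitochondrial ribosome, Snrpa1 of the U2 snRNP and Cops4 of the COP9 signalosome belong here too. Ddah1, C1qbp, Dnttip1, Wdr70, Tsnax and Zfp282 complete the 15.

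Which genes ranked as most stable depended on the samples, although most of them stayed under the median spread of all genes. Since spread falls with level, level also enters these counts, and its part was not tested. Of the 100 most stable genes chosen in the 4 samples labelled male, 77 were under the median SD in the 4 labelled female, and 76 the other way round, but the 2 sets of 100 shared 1 gene. When samples were scaled by the median of ratios to a common reference (factors 0.973 to 1.06), 26 of the 100 most stable stayed among the 100. All 15 named genes remained in the lowest 10% of SDs under that scaling, with a highest percentile of 6.75. They were picked from the same values and the factors are near 1, so this result was largely given in advance.

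Genes often used to normalise qPCR had a median SD of 0.0987 over the 16 of 17 with a mean of at least 10 TPM, close to the 0.101 of all genes at 500 TPM or more, and 3 of the 16 lay above the median of all genes. Ppia at 2847 ± 122 TPM and Actb at 1319 ± 83.3 TPM had narrow ranges. B2m, the light chain of MHC class I, had an SD of 0.42, at percentile 96.0 of all genes, from 47.0 TPM in vehicle female 4 to 117 TPM in vehicle male 2, the samples that were lowest and highest for most endothelial and microglia genes. The part of those cells in the B2m values was not tested.

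**Figure D4:**
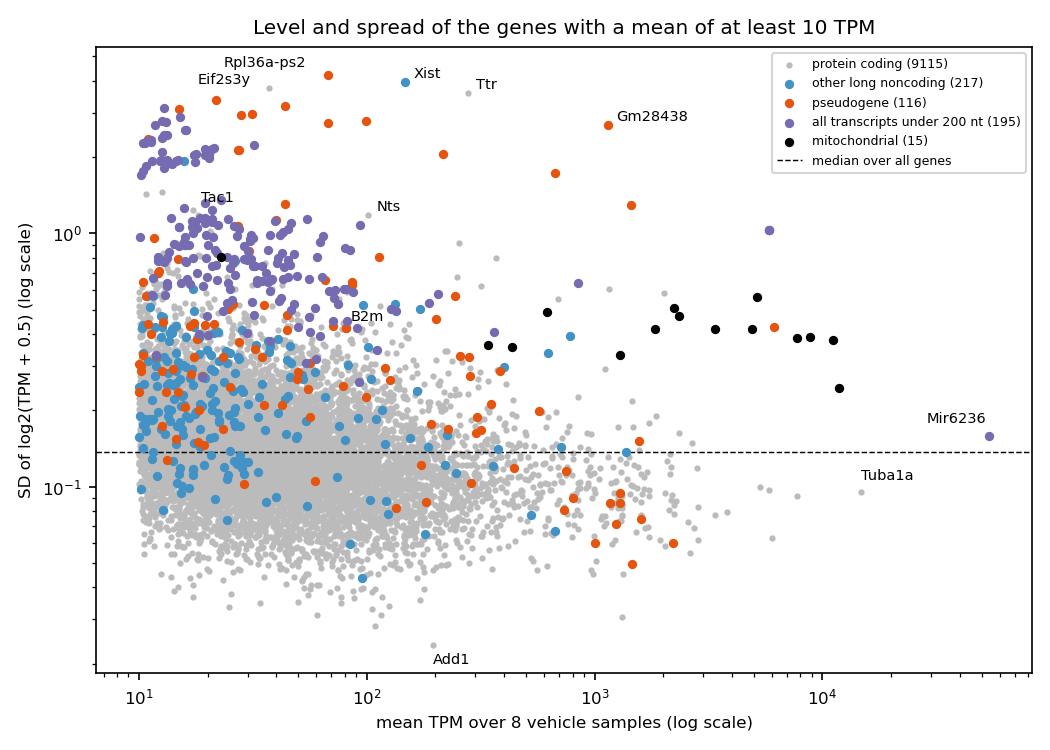
SD over the 8 vehicle samples of log2(TPM + 0.5) against mean TPM (both axes log scale) for the 9658 genes with a mean of at least 10 TPM, coloured by gene class, with the number of genes in brackets and the median SD of 0.138 dashed. Genes whose transcripts are all under 200 nt (median SD 0.838) and many pseudogenes (0.316) lie above the protein-coding genes (0.134).

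The most variable genes were mostly not messenger RNAs of known function. Of the 100 with the highest SD, 71 had only transcripts under 200 nt, although such genes were 195 of the 9658, and 18 were pseudogenes, which were 116. Protein-coding genes outside the mitochondrial genome were 9115 of the genes and 9 of the 100. The 25 highest, led by Rpl36a-ps2, Xist, Eif2s3y, Ttr, Rps6-ps4 and Gm10052, held 11 pseudogenes and 8 microRNA genes.

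Rpl36a-ps2 led all genes with an SD of 4.20. This processed pseudogene of 321 nt at chr3:145879020-145879340 (plus strand, GRCm38) matches the transcript of its parent Rpl36a, a ribosomal protein gene at chrX:134585654-134588062 (plus strand), at every base. It was at 265 and 274 TPM in vehicle female 1 and 2 and listed at 0 in the other 6. Rpl36a was at 758 and 857 TPM in those 2 samples and at 1115 to 1381 TPM in the other 6. The sum of both genes was 1024 to 1381 TPM, with an SD on the log2 scale of 0.13 against 0.29 for Rpl36a alone. Of the 116 pseudogenes, 57 (49.1%) were held whole within a transcript of another gene, with a median SD of 0.423 against 0.287 for the rest. Examples are Rps6-ps4 in Rps6, Gm10052 in Hnrnpa1, Gm10182 in Hmgn2 and Gm10443 in Rps28. The first 120 bases of the shared stretch, which begins at the start codon, are the same in both genes.
Rpl36a and Rpl36a-ps2: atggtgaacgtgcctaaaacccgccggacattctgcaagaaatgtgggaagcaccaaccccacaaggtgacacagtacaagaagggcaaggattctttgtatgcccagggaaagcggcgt

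Nuclear copies of mitochondrial sequence were variable too. The 5 such genes on chromosome 1 summed to 5474 to 13675 TPM, and the mitochondrial genome itself to 46739 to 93580 TPM. Gm28438 was at 6.40 TPM in vehicle female 2 and at 980 to 1701 TPM in the other 7 samples. The split between near-identical copies is uncertain. Gm28661, Gm28437 and Gm10925 are held whole within mt-Co2, mt-Co3 and mt-Atp6, so the split between the nuclear and the mitochondrial sum is uncertain as well.

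Among the 9128 protein-coding genes with a transcript of at least 200 nt, the 25 most variable fell into groups by the samples that set them apart. This narrower set was chosen after the values were seen. Of the 25 genes, 10 were lowest in vehicle male 1 and 9 were highest in vehicle male 2. Ttr and Eif2s3y led, through the choroid plexus and Y-linked values given above.

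A group with genes of the meninges and border macrophages was lowest in vehicle male 1 and highest in vehicle male 2 or male 4. Ptgds, a prostaglandin D synthase of the meninges, was at 69.0, 508, 305 and 288 TPM in the males in label order and at 351, 220.2, 127 and 159 TPM in the females. Cldn11, a tight junction protein of the arachnoid barrier and of myelin, was at 3.10 TPM in vehicle male 1 and at 8.97 to 23.9 TPM in the other 7. Dcn, Ogn, Mgp, Colec12, Plac9b and Pf4 were each lowest in vehicle male 1 as well, with Colec12 at 5.19 TPM there and 5.22 TPM in vehicle female 4. Mgp was highest in vehicle male 4 and the others in vehicle male 2. The sums of the meningeal list, 68.1 TPM in vehicle male 1 and 296 TPM in vehicle male 2, ran beside these values, and their part in them was not tested.

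A neuronal group followed the striatal list. Besides Tac1 and Penk, Rxrg, a retinoid X receptor, was at 23.7, 4.25, 1.74 and 2.01 TPM in the males and 31.8, 16.6, 11.7 and 9.67 TPM in the females. Lypd1, a modulator of nicotinic receptors, was at 20.7 and 27.0 TPM in vehicle male 1 and female 1 and at 6.50 to 13.999 TPM in the other 6. Crabp1, a cytoplasmic retinoic acid carrier, was at 3.69 and 5.39 TPM in vehicle male 3 and 4, the samples with striatal sums of 97.7 and 126 TPM, and at 35.7 TPM in vehicle female 1, with a sum of 263 TPM. These genes and the striatal sum were high and low in the same samples, and the part of striatal cells in their values was not tested.

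Nrp2, a semaphorin receptor that guides axons, had another order. It was at 34.6, 35.2 and 30.02 TPM in vehicle male 3, female 3 and male 2, at 20.6 and 21.8 TPM in female 2 and female 1, and at 5.72, 6.95 and 10.7 TPM in male 1, male 4 and female 4. Crym, a thyroid hormone-binding protein of deep-layer neurons, was likewise at 111, 115 and 91.0 TPM in the first 3 and at 60.3, 44.2 and 41.4 TPM in the last 3. Zbtb20, a transcription factor of the hippocampal primordium, was at 9.60, 10.3 and 9.04 TPM in the first 3 and at 5.88, 4.19 and 5.96 TPM in the last 3. The 3 genes thus split the same samples, although Crym and Zbtb20 were picked for this beside Nrp2 after their values were seen. The lists they come from hold 7 deep-layer and 6 hippocampal genes. Whether the other members split alike was not tested.

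Single samples carried other peaks and troughs. Nts, the neurotensin precursor, was at 12.5 TPM in vehicle male 4 and at 65.7 to 147 TPM in the other 7. Sox10, a transcription factor of the oligodendrocyte and Schwann lineages, was highest in vehicle female 4, at 10.96 TPM against 3.07 to 5.68 TPM. Nr4a2, a subplate marker, was at 134 TPM in vehicle male 3 and at 56.8 to 77.8 TPM in the other 7. A noncoding transcript of 182 nt held 38.0% of it in vehicle male 3. Counting over the 9128 genes those at least 1.5-fold beyond every other sample, a count added after seeing the data, vehicle female 3 had 48 genes below all others, vehicle male 1 had 17 below, vehicle female 4 had 11 above and vehicle male 2 had 8 above.

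**Figure D5:**
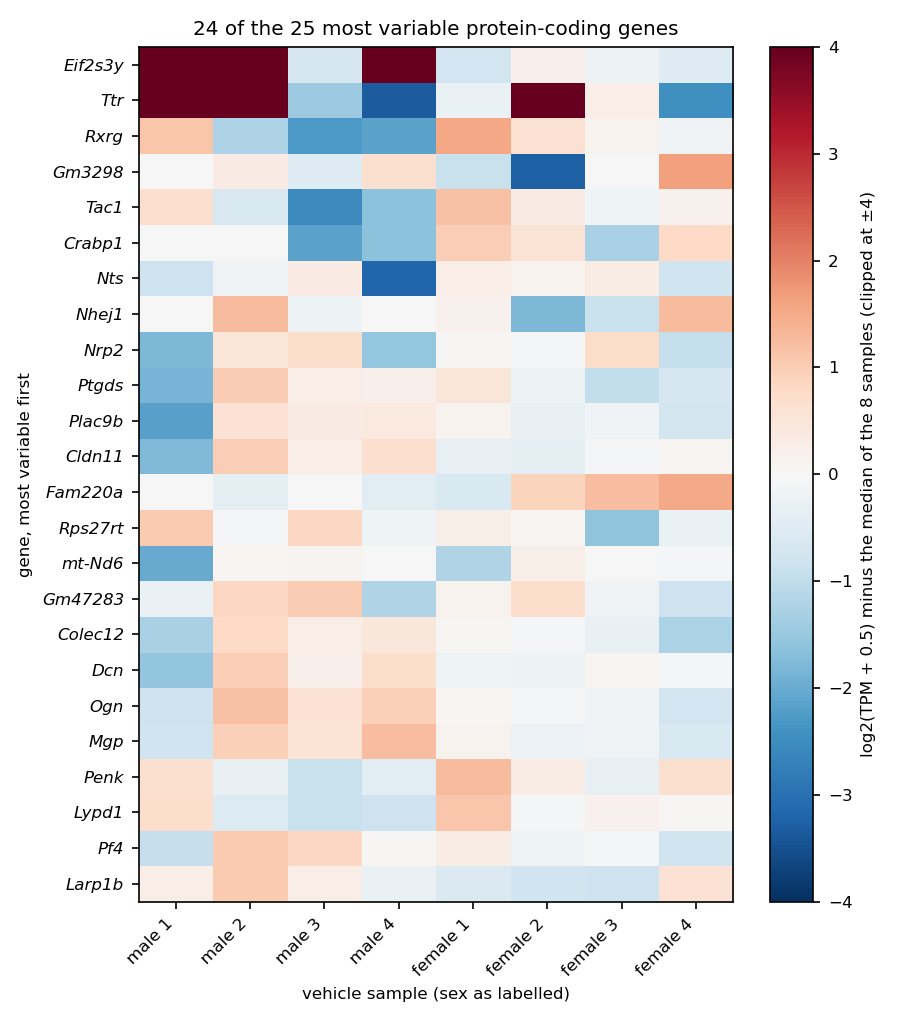
Log2(TPM + 0.5) of 24 of the 25 most variable protein-coding genes with a transcript of at least 200 nt, each row relative to its median over the 8 vehicle samples (red above, blue below). Vehicle male 1 is blue for the meningeal genes Dcn, Ogn and Mgp, and Ttr is red in vehicle male 1, male 2 and female 2.

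Whether samples labelled female and male differed was tested with limma over 15385 genes with at least 1 TPM in 4 or more samples. With all 8 samples, 1 gene passed an adjusted p of 0.05, which is 0.00650% of those tested, and 639 had an unadjusted p under 0.05. It was Gm25291, a small nucleolar RNA gene, listed at 0 in all 4 samples labelled female and at 3.38 ± 1.40 TPM in the 4 labelled male (log2 difference −2.89, SE 0.26, limma adjusted p = 0.0214). It passed the filter on low values only through the samples in which it was present, so this call had to come with a difference and supports nothing further. The groups did not overlap in 380 genes (2.47%). Xist did not pass, and the Y-linked genes, at 1 TPM or more in only 3 samples, were not tested.

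Without vehicle male 3, 9 of 15663 genes passed (0.0575%). Xist was higher in females by 7.58 on the log2 scale (SE 0.23, limma adjusted p = 7.25e-06). Eif2s3y, Ddx3y, Kdm5d and Uty were lower, with log2 differences of −7.17, −5.26, −4.78 and −3.71. The other 4 were Gm29650 on the Y chromosome, Mir7231, Mir1195 and Gm25291. The filter asked here for 1 TPM in 3 samples. Eif2s3y, Ddx3y, Kdm5d, Uty and Gm25291 met it through the samples labelled male alone. Their calls thus had to come with a difference and support nothing further. Gm29650, Mir7231 and Mir1195 had log2 differences of −4.35, −3.24 and −3.23. The samples through which they met the filter are not given here, so no more is drawn from their calls. Xist met the filter through the samples labelled female, and of the males only vehicle male 4 reached 1 TPM, at 1.13 TPM. The X-linked genes Eif2s3x and Kdm6a, which escape inactivation and encode a translation initiation factor and a histone demethylase, had log2 differences of 0.52 and 0.44 (limma adjusted p = 0.668 and 0.508). In this set of 7 samples no autosomal protein-coding gene passed between the sexes.

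The library numbers in the labels fall into the runs 5 to 8 and 17 to 20, with 2 males and 2 females each. What the runs stand for is not given, and vehicle male 3 belongs to the second. With sex as a covariate, 0 of 15385 genes passed in limma (0%), 1285 genes (8.35%) had an unadjusted p under 0.05, and the groups did not overlap in 652 genes (4.24%). The smallest adjusted p, 0.0579, was that of mt-Tp, a mitochondrial tRNA gene listed at 0 in the 4 samples of the first run and at 3.89 ± 1.45 TPM in those of the second, through which alone it passed the filter. Striatal genes were lower in the second run for all 12 tested, with a median log2 difference of −0.91 against −0.01 over all genes, and 9 of the 12 had an unadjusted p under 0.05. All 12 were also higher in samples labelled female, with a median log2 difference of 0.72 against −0.04 over all genes. Vehicle male 3 counts there among the males, against its Xist and Y-linked values, and was lowest for 8 of the 12. The striatal difference without it is not given here. Vehicle male 3 and vehicle female 1, the extremes of the striatal sum, lie on opposite sides of both splits. Of the 11 choroid plexus genes, 7 passed the filter, Folr1 only through the first run, so a count over the 7 is not given as a result, and Ttr was at 545 ± 383 TPM in the first run and 9.04 ± 10.5 TPM in the second (log2 difference −5.50, SE 1.35, limma adjusted p = 0.579). Without vehicle female 1, the sample of the first run that was low in choroid plexus genes, 14 genes passed, but the filter then asked for 1 TPM in 3 samples only, which Clic6 and Kcne2 met through the 3 high samples alone.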

How the data were processed

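RNA of E18 dorsal forebrain was sequenced as stranded poly(A) libraries. The authors trimmed adapters with Trim Galore 0.4.1 and quantified reads with kallisto 0.43.1 against GENCODE M16 (GRCm38), per the methods and the submitters' processing notes. The deposited table holds TPM per transcript and sample, and each column sums to 1000000. Values are thus relative to transcript length and library total, depth is unknown, and no count model was used.

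Gene TPM were sums over transcripts, which the GENCODE M21 models (GRCm38) assigned to 53337 genes. Of 133849 transcripts, 404 had no gene there (0.169% to 0.199% of a sample's TPM) and were left out. Only the 8 vehicle samples were used, apart from 1 alternative fit of all 15. Spread was the SD of log2(TPM + 0.5) over genes with a mean of at least 10 TPM. The sexes and the library-number runs were compared with limma 3.58.1 (R 4.3.3) with a mean-variance trend, two-sided, Benjamini-Hochberg adjusted p under 0.05, on genes with at least 1 TPM in 4 or more samples (3 or more where a sample was left out). A fold change on this scale understates that of low genes. Partner genes and isoform events had exact two-sided sign-flip permutation tests over the 8 samples. An isoform event compared transcripts that hold an exon exactly with those that span it without overlap. P-values measure the spread between these samples, which by the study's counts are pairs of littermates but were treated as independent. The tests were checked on simulated data. Sequences came from the GENCODE M21 transcripts (GRCm38). A few genes and 1 sequence are not reported here, although lists and counts include them.

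The named genes were the 20 protein-coding genes of highest mean TPM, the mitochondrial genes, the 15 genes of lowest and the 25 of highest SD, members of 23 cell type and 8 pathway lists, the partner and isoform genes, the 10 most abundant genes with a noncoding dominant transcript, the 10 with the largest SD of the dominant share, and up to 15 genes past the threshold in each limma test. Members and lists were chosen with earlier results of these data known. Alternatives covered scaling, pseudocounts, filters, covariates and leaving out each sample. Python 3.11.15, pandas 2.3.3, numpy 2.4.6, scipy 1.17.1 and matplotlib 3.10.9 were used.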

Additional observations from a re-analysis of the deposited data

Results flagged for a closer look

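A sample far from the other 3 of its labelled sex was looked for by Dixon's criterion at 95% in 248 groups of 4, and 23 groups (9.27%) met it, where chance gives about 1 in 20. The 2 shares cannot be compared, since some genes were included as the most variable and several values repeat 1 signal, such as Ttr and the choroid plexus sum. Vehicle male 3 is counted here among the males. No explanation was tested for any of them.

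Among summed lists, choroid plexus was 968 TPM in vehicle female 2 against 9.84 to 31.8 TPM in the other females, ependyma was 6.00 TPM in vehicle male 4 against 10.8 to 11.1 TPM, and in vehicle male 3 the Y-linked sum was 0.489 TPM and the sum of X-linked genes that escape inactivation 793 TPM, against 145 to 155 and 406 to 425 TPM in the other males. Xist at 266 TPM and Eif2s3y at 0.0411 TPM set the same sample apart.

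Among partner and isoform values, the log2 ratio of Tubb3 to Tubb4a was 3.07 in vehicle female 4 against 3.19 to 3.21, that of Hbb-y to Hbb-bs was −10.48 in vehicle female 1 against −11.56 to −11.39, App exon 8 was 5.04% in vehicle female 1 against 4.46% to 4.54%, the upstream Gria2 exon 26.5% in vehicle female 2 against 24.1% to 24.4%, and the 36-nt Clta exon 5.97% in vehicle male 2 against 6.90% to 7.08%. These differences are small beside those of the cell type lists.

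Among abundant and stable genes, Stmn1 was 6497 TPM in vehicle female 3 against 6015 to 6062 TPM, Tmsb10 3537 TPM in vehicle male 4 against 3893 to 3910.2 TPM, Ptma 2672 TPM in vehicle male 1 against 2842 to 2867 TPM, Supt4a 107 TPM in vehicle male 2 against 103 TPM in the other males, and Dnttip1 32.6 TPM in vehicle female 4 against 34.5 to 34.6 TPM.

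Among variable genes, Ttr was 922 TPM in vehicle female 2 against 3.23 to 24.4 TPM, Larp1b 20.6 TPM in vehicle female 4 against 7.51 to 9.13 TPM, Rxrg 23.7 TPM, Lypd1 20.7 TPM and mt-Nd6 6.20 TPM in vehicle male 1 against 1.74 to 4.25, 6.50 to 8.34 and 26.0 to 28.6 TPM, Lypd1 27.0 TPM in vehicle female 1 against 11.9 to 13.999 TPM, and Nhej1 41.5 TPM in vehicle male 2 against 14.5 to 17.3 TPM, of which a 65-nt transcript, too short for a reliable level, held 90.1% in that sample.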

How the results depend on the processing

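Of 499 values recomputed, 460 kept their direction and call or moved by less than the spread or 1.5 times, including all 150 of the partner genes and 207 of 209 of the isoform events. With protein-coding transcripts only, the log2 ratios of the 33-nt and the 24-nt Agrn exon were both 0.068 (exact permutation test, adjusted p = 0.445), the first reversed and the second no longer past the threshold. The share of the 100 most abundant genes was 28.8% without mitochondrial genes and 27.3% with genes having a transcript of at least 200 nt only, an alternative chosen after seeing the data, and 13.4% and 60.9% for 10 and 1000 genes. At a gene mean of 20 TPM, 1293 genes had a transcript with 90% of the gene. Of the 100 most stable genes, 26 stayed with median-of-ratios scaling, 23 with quantile normalization, 59 with the SD around the sex means and 52 to 69 with a sample left out. Of the 100 most variable, 40 and 45 stayed with genes of at least 5 and 20 TPM, 83 to 91 with a sample left out, and 9 with protein-coding genes of at least 200 nt only (chosen after seeing the data). Calls between the sexes numbered 0 with a pseudocount of 1, without a filter, with at least 5 TPM in every sample and in the fit of all 15 samples, and 0 to 9 with a sample left out (9 without vehicle male 3, 5 without female 3, 4 without male 1, male 2 or female 4, 0 without male 4, female 1 or female 2). Calls between the runs numbered 1 with a pseudocount of 0.1, with an adjusted p under 0.1 and without the sex covariate, and 0 to 14 with a sample left out (14 without female 1, 7 without female 4, 4 without male 2, 2 without male 1, 1 without male 3). The cause of these changes was not tested. No paired analysis was possible because the labels give no litter or pairing number that joins a male to a female sample. TPM hold no depth, so a gene listed at 0 cannot be told from one below detection.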
